A study of Mus musculus with 4 samples.

Results

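The genes described here are 9 human genes of antigen presentation by MHC class I, of 33538 human genes counted. They were taken as a named list: HLA-B (ENSG00000234745), HLA-C (ENSG00000204525), HLA-E (ENSG00000204592), HLA-F (ENSG00000204642), B2M (ENSG00000166710), TAP1 (ENSG00000168394), TAP2 (ENSG00000204267), PSMB9 (ENSG00000240065) and NLRC5 (ENSG00000140853). Their levels were read in barcodes with over 50% of UMIs on human genes, of which 17046 remained after filtering. The study examined human leukocytes by scRNAseq in mice engrafted with a human immune system, a week after a contusive spinal cord injury (SCI) at the T9 level. Blood was taken from naïve mice without surgery, from sham mice 7 days after laminectomy alone, and from SCI mice at 7dpi, and the injured cord was the source of a further library. Every library held sorted live human CD45+ cells pooled across hosts, and the cord cells were also released with papain and enriched on magnetic beads. The hosts were huNSG-SGM3 mice aged 15 weeks by the labels, male in the naïve and sham groups and of both sexes in the SCI group. The study instead counts from engraftment, with surgery 15 weeks after it and samples taken 7 days later. All groups were NOD.Cg mice with Prkdcscid and with IL2rgtm1Wjl, and all bore the transgene array Tg(CMV-IL3,CSF2,KITLG)1Eav/MloySzJ, so the human IL3, CSF2 and KITLG transgenes were driven by the CMV promoter in controls and injured mice alike. These hosts lack lymphocytes of their own but keep mouse myeloid cells. How many human donors stood behind each library is not given in the sources used here.

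MHC class I molecules carry short peptides from the cytosol to the surface of nearly all nucleated cells, where CD8 T cells and NK cells read them. The proteasome cuts the peptides, the TAP transporter moves them into the endoplasmic reticulum, and a heavy chain takes up a peptide once it has paired with the light chain. Transcription of several of these genes is driven by NLRC5 and is raised by interferon, in part through IRF1. T cells enter the injured spinal cord, where neurons and glia can come to express class I molecules.

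Each condition was represented by 1 library, so no difference between conditions could be tested; intervals are exact 95% intervals that cover counting error only. Cells that passed numbered 6332 from naïve blood, 4659 from that of sham and 5937 from that of SCI mice, and 118 for the cord. The median UMIs per cell were 3699.5, 5234, 4655 and 9331, so cord cells were read most deeply and naïve blood cells least deeply. Levels are CPM, counts scaled to a common total of UMIs on human genes without ribosomal and mitochondrial genes, summed over the cells of a library. Ribosomal genes took 16.8%, 18.1%, 22.4% and 18.2% of human UMIs in the same order, highest in SCI blood. Pairs of blood libraries shared 4 to 10 cell barcodes, SCI blood and cord shared 1, and the other pairs with cord shared 0.

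The cells fell into 14 clusters, 13 of which could be named from markers into 10 classes. T-lineage cells, joining the CD4 T-like, Treg-like, CD8 T-like, cytotoxic memory T-like and naïve T-like classes, were 66.5% of cells from naïve, 79.1% from sham and 77.7% from SCI blood, and 55.1% from cord. Plasma-like cells belonged almost wholly to naïve blood, with 386 cells against 1 from sham and 2 from SCI blood and 1 from cord. For this reason values in T-lineage cells stand beside those in all human cells throughout. Among B-like cells, a cluster with 36.9% marked doublets held 19.7% of the class in naïve blood, 2.44% in sham blood and 4.68% in SCI blood. Monocyte-like cells numbered only 18 in SCI blood, against 140 in naïve and 94 in sham blood.

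As a set the members differed little in CPM between the 3 blood libraries, when summed over all human or T-lineage cells. In counts per cell the medians over all human cells reached 0.46 for sham to naïve and -0.42 for SCI to sham blood. Over all human cells the members stood lower in the cord in CPM but higher in counts per cell. Over all human cells, the median log2 ratio of the 9 members was 0.12 for sham against naïve blood, beside 0.07 over all genes with at least 20 counts. For SCI against naïve blood it was 0.02, beside 0.07 over all genes, and its sign turned in 9 of 14 alternatives, so no direction is given. SCI against sham blood gave -0.13 beside 0.01. The cord against SCI blood gave -0.27 beside -0.01, the median farthest below that of all genes, but it turned to 1.04 when counts per cell were used in place of CPM, since cord cells held more UMIs. In T-lineage cells the corresponding medians were -0.01, -0.08, -0.15 and -0.06, beside -0.03, -0.02, 0.01 and 0.04 over all genes. These T-lineage medians kept their sign in 10, 13, 14 and 12 of 14 alternatives. The naïve library serves in 2 of these comparisons, as does the sham library, and SCI blood in 3, so they are not independent. Scaling by counts per cell moved the all-gene median by 0.34, 0.06, -0.29 and 1.31 over all human cells and by 0.52, 0.28, -0.24 and 0.89 in T-lineage cells, in the order of comparisons given.

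Past a 1.2-fold difference, 1 of 9 members (HLA-F) was higher in sham than in naïve blood over all human cells, beside 21.8% of all genes, and 0 were lower, beside 15.1%. For SCI against naïve blood 1 member (HLA-B) was higher, beside 24.2%, and 0 lower, beside 17.9%. Neither the HLA-F nor the HLA-B call remained without plasma-like cells, where the log2 ratios were 0.07 and 0.13. For SCI against sham blood 0 were higher and 0 lower, beside 16.5% and 15.7% of all genes. The cord gave 0 higher and 5 lower (HLA-E, B2M, TAP1, NLRC5 and PSMB9, each higher instead in counts per cell), beside 34.0% and 33.6%. In T-lineage cells 0 of 9 were higher and 0 lower for sham against naïve, beside 10.1% and 15.7%. SCI against naïve blood had 0 higher and 1 lower (NLRC5), beside 16.1% and 18.5%. SCI against sham blood had 0 and 0, beside 17.7% and 13.8%. Cord T-lineage cells had 1 higher (TAP2) and 2 lower (TAP1 and NLRC5), beside 36.3% and 29.4%. Apart from the cord summed over all human cells, the members passed this fold no more often than other genes in the direction counted.

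HLA-B encodes a classical heavy chain, which presents peptides to CD8 T cells. Over all human cells HLA-B stood at 3028 CPM in the naïve library, 3326 in the sham, 3724 in the SCI blood and 3370.0 in the cord library. Counting intervals were 3005 to 3051, 3301 to 3351, 3698 to 3750.1 and 3260.5 to 3482 CPM, so SCI blood was highest and naïve blood lowest, but without plasma-like cells naïve blood stood at 3394 CPM, above sham blood at 3327. In T-lineage cells the level was 3319 CPM in the naïve library, 3304 in the sham, 3751 in the SCI blood and 3855 in the cord library. Naïve and sham T-lineage cells could not be told apart at this depth, with a log2 ratio of -0.01 (-0.03 to 0.01), while both SCI libraries lay above them. The log2 ratio of SCI to sham blood in T-lineage cells was 0.18 (0.17 to 0.20), which turned to -0.06 in counts per cell. Within classes it was above 0 in 8 of 9, from 0.03 in monocyte-like to 0.33 in cytotoxic memory T-like cells; basophil or mast-like cells were the exception at -0.27 (-0.36 to -0.18), and in counts per cell only 3 of 9 lay above 0. Against naïve blood the same 8 classes were above 0, from 0.07 in CD8 T-like to 0.28 in Treg-like cells, and basophil or mast-like cells stood at -0.22 (-0.33 to -0.11), which turned to 0.12 in counts per cell. After thinning each cell to 1000 UMIs, HLA-B was detected in 89.9%, 90.5%, 90.7% and 90.7% of cells in naïve, sham and SCI blood and cord, and without thinning in 99.70%, 99.96%, 99.93% and 99.15%.

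HLA-C, the other classical heavy chain of the list, is also a ligand of inhibitory receptors on NK cells. Over all human cells it stood at 3763 CPM in the naïve library, 4079.6 in the sham, 3443 in the SCI blood and 3226 in the cord library, with intervals of 3737 to 3789, 4052 to 4107, 3418 to 3468 and 3119 to 3336 CPM. The SCI libraries were lowest, the reverse of the order of SCI and naïve blood for HLA-B, and sham blood was highest, though not without plasma-like cells, where naïve blood stood at 4101 CPM and sham blood at 4081. T-lineage cells held 4292 CPM in the naïve library, 4264 in the sham, 3689 in the SCI blood and 3533 in the cord library. Their log2 ratio of SCI to sham blood was -0.21 (-0.23 to -0.19) and that of SCI to naïve blood -0.22 (-0.24 to -0.20), the latter turning to 0.06 in counts per cell. HLA-C was lower in SCI than in sham blood in 9 of 9 classes, from -0.07 in CD8 T-like to -0.40 in B-like and -0.74 in monocyte-like cells, and the interval lay below 0 in each. Against naïve blood it was likewise below 0 in 9 of 9 in CPM, but in counts per cell in 2 of 9. Thinned shares of cells with HLA-C were 93.9%, 94.1%, 89.8% and 83.9%, and unthinned shares 99.83%, 99.94%, 99.97% and 100%.

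HLA-B and HLA-C were counted in the same cells, so the ratio of their counts does not depend on the scaling. HLA-B UMIs per HLA-C UMI over all human cells were 0.805 in naïve blood and 0.815 in sham blood, and reached 1.08 in SCI blood with 1.04 for the cord. Intervals of 0.797 to 0.813 and 0.807 to 0.824 for the first pair overlapped, while those of SCI blood (1.07 to 1.09) and cord (0.997 to 1.10) lay above both. In T-lineage cells the ratio was 0.773, 0.775, 1.02 and 1.09 in the same order. Of the 9 classes with at least 10 cells in each blood library, the SCI interval lay above the sham interval in 8 and above the naïve interval in 8. Naïve and sham intervals overlapped in 9 of 9 classes, and SCI blood and cord intervals in 5 of 5. Monocyte-like cells had the widest gap, 0.940, 0.969 and 1.65 in naïve, sham and SCI blood, on 18 SCI cells. B-like cells had 0.997, 1.01 and 1.40. CD8 T-like cells moved over a narrower range, with 0.799, 0.798 and 0.919. The exception was the basophil or mast-like class at 0.844, 0.831 and 0.877, where all 3 intervals overlapped. HLA genes resemble each other closely and are polymorphic, and reads were aligned to 1 reference, so how reads were split between HLA-B and HLA-C in each library is uncertain. Donor and condition cannot be told apart in these libraries.

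**Figure D1:**
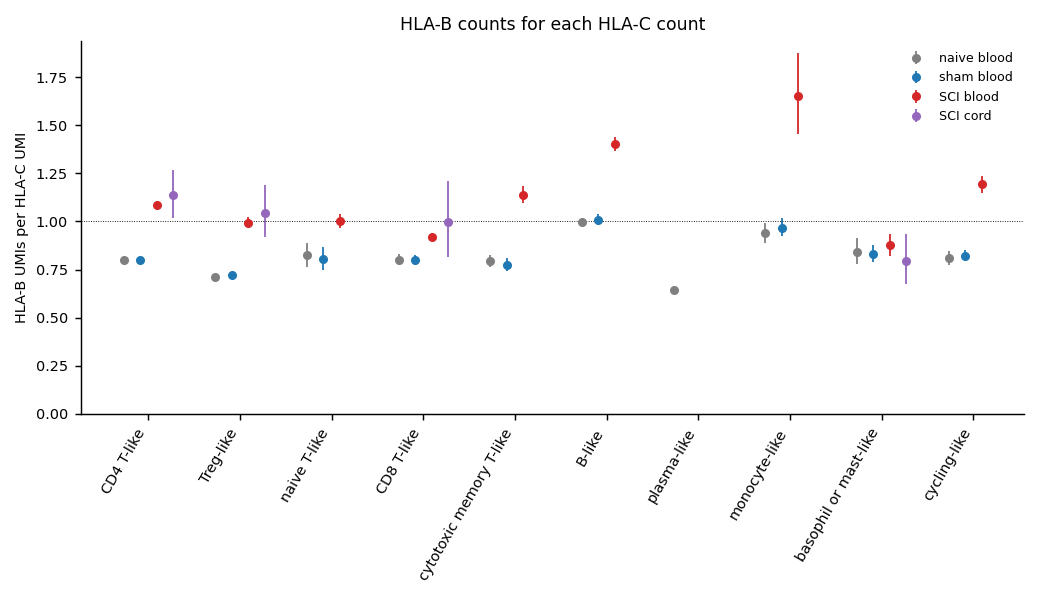
HLA-B UMIs per HLA-C UMI (y axis, a ratio of counts) by cell class (x axis) for the 4 libraries; bars are exact 95% intervals that cover counting error only. A dotted line marks 1, and SCI blood lies above naïve and sham blood in 9 of 9 classes, from 1.65 against 0.969 in sham blood for monocyte-like cells to overlapping intervals in basophil or mast-like cells.

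HLA-E, a nonclassical heavy chain, shows leader peptides of other class I chains to the NKG2A and CD94 receptor. Its level over all human cells was 1245 CPM in the naïve library, 1343 in the sham, 1346 in the SCI blood and 1115 in the cord library. Cord was lowest, and naïve blood lay below sham and SCI blood but above them without plasma-like cells, at 1409 CPM. Sham and SCI blood had a log2 ratio of 0.0028 (-0.02 to 0.03) for the latter to the former, a difference not detectable at this depth. In T-lineage cells HLA-E kept to a narrow span in CPM, at 1486 in the naïve library, 1445 in the sham, 1448 in the SCI blood and 1510.5 in the cord library. Counts per cell in T-lineage cells spread more widely, at 4.06, 5.66, 4.80 and 9.31 in the same order. The CPM ratio of SCI to sham blood in T-lineage cells was 0.003 (-0.02 to 0.03), while in counts per cell SCI blood was lower in 9 of 9 classes. Thinned shares were 63.8%, 64.0%, 60.8% and 53.4% of cells, unthinned 96.5%, 98.7%, 98.0% and 100%. HLA-F, a nonclassical heavy chain found largely inside the cell, stood at 191 CPM in the naïve library, 235 in the sham, 225 in the SCI blood and 199 in the cord library over all human cells. In T-lineage cells it was 228 CPM in the naïve library, 252 in the sham, 241 in the SCI blood and 282 in the cord library, lowest in naïve blood. The log2 ratio of sham to naïve T-lineage cells was 0.14 (0.07 to 0.22), with Treg-like cells at 0.35 (0.22 to 0.48). SCI against sham blood gave -0.07 (-0.13 to -0.00044), and 7 of 9 classes lay below 0. HLA-F was detected in 15.0%, 17.1%, 14.8% and 12.7% of thinned and 46.0%, 60.3%, 53.3% and 70.3% of unthinned cells.

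B2M encodes the light chain that every class I heavy chain pairs with. Over all human cells B2M stood at 20800.4 CPM in the naïve library, 24069.7 in the sham, 21925 in the SCI blood and 16322 in the cord library, with intervals of 20740.3 to 20860.5, 24003 to 24137, 21862 to 21987 and 16080.1 to 16567 CPM. Sham blood was highest and the cord lowest, and no intervals overlapped. T-lineage cells held 25379.9 CPM in the naïve library, 26569 in the sham, 23951 in the SCI blood and 20739.7 in the cord library. The log2 ratio of SCI to sham blood was -0.15 (-0.16 to -0.14) in T-lineage cells and below 0 in 9 of 9 classes, from -0.02 in cytotoxic memory T-like to -0.57 in monocyte-like cells. No T class lay as far below 0 as the T-lineage sum, whose mix differed, with Treg-like cells, highest in B2M, at 1123 of 4211 in naïve, 1087 of 3684 in sham and 734 of 4612 in SCI blood; with equal class weights the T-lineage value was -0.07. Sham was above naïve blood in 8 of 9 classes, with cycling-like cells the exception at -0.06 (-0.08 to -0.04), below 0 in most but not all draws of thinned cells (37 of 100 above it). Against naïve blood the direction of SCI blood depended on the cells and their mix, at 0.08 (0.07 to 0.08) over all human cells and -0.08 (-0.09 to -0.08) in T-lineage cells, and the first turned to -0.06 without plasma-like cells (and below 0 with ribosomal and mitochondrial genes in the total, a mean of per-cell CPM, thinning, equal class weights or a total without immunoglobulin genes) and the second to 0.19 in counts per cell and was -0.01 with equal class weights. B2M was seen in 99.94%, 99.98%, 100% and 100% of thinned cells, so its share carries little information.

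**Figure D2:**
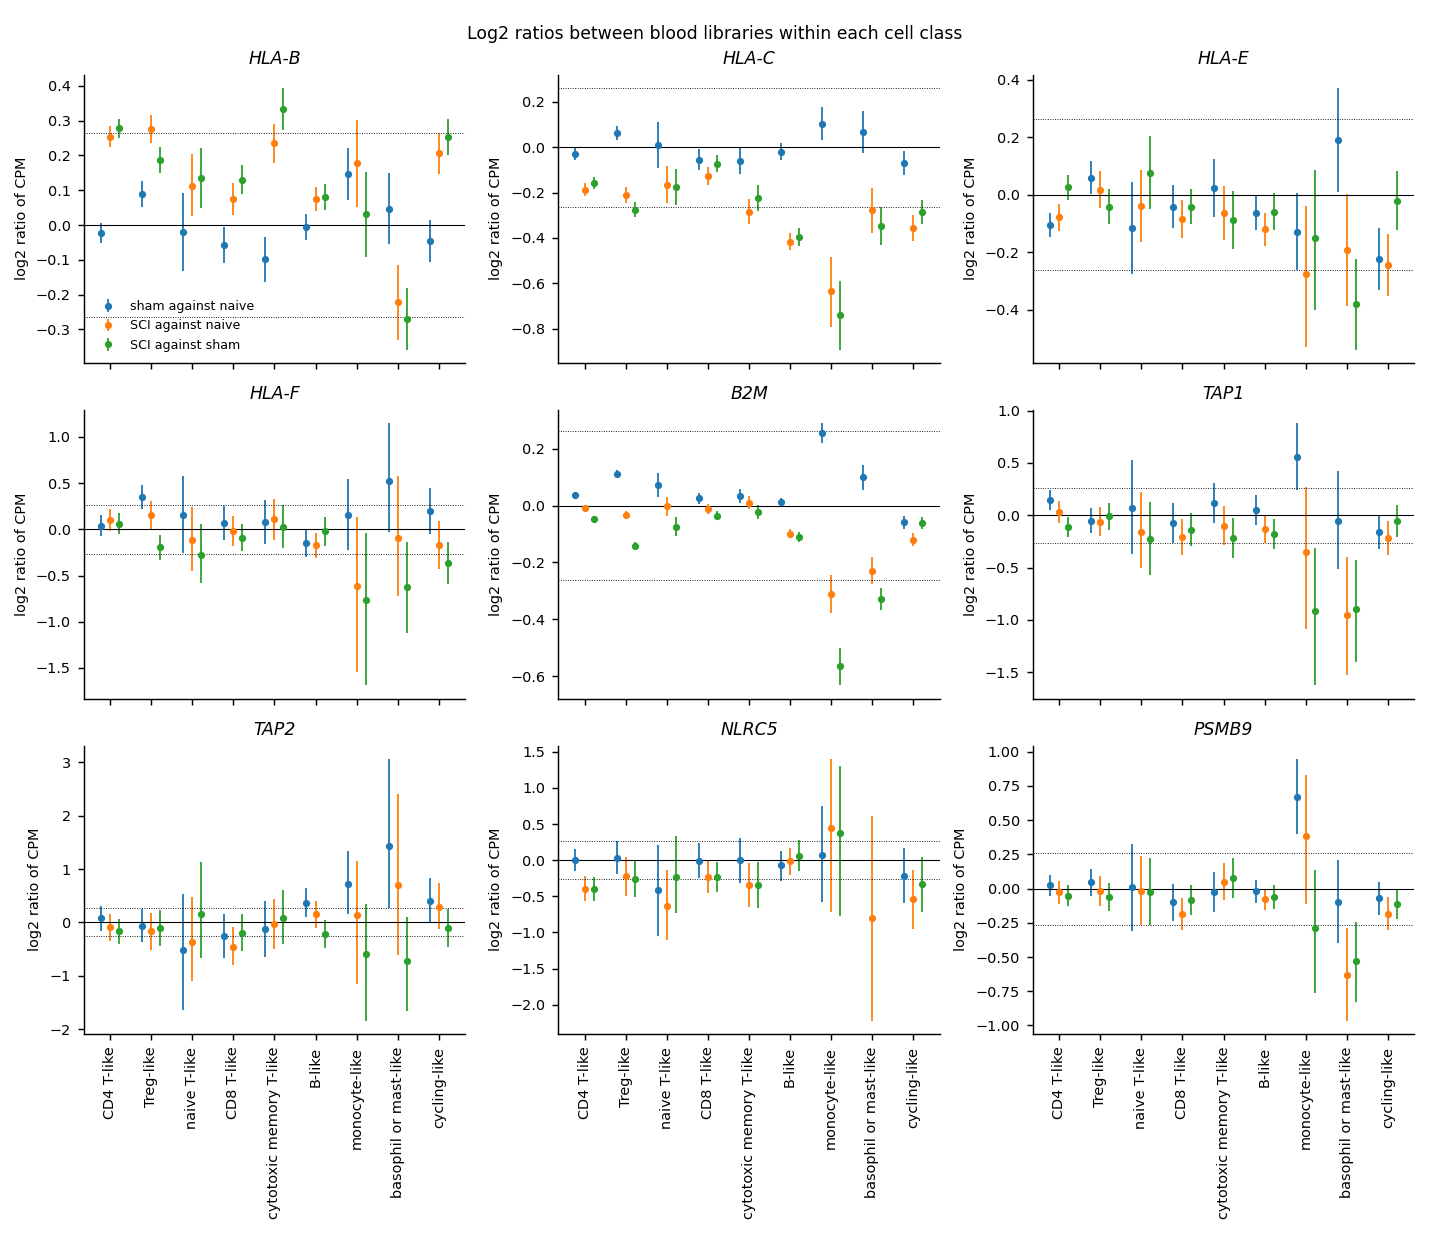
Log2 ratio of CPM (y axis) of the 9 members for the 3 pairs of blood libraries in 9 cell classes (x axis), with exact 95% intervals that cover counting error only and dotted lines at 1.2-fold. For SCI against sham blood HLA-B lies above 0 in CD4 T-like cells (0.28) and below it in basophil or mast-like cells (-0.27) while HLA-C lies below 0 in 9 of 9 classes, although summed over T-lineage cells HLA-B turns to -0.06 when scaled by counts per cell.

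TAP1 and TAP2 form the transporter that carries peptides into the endoplasmic reticulum. TAP1 over all human cells stood at 283 CPM in the naïve library, 302 in the sham, 264 in the SCI blood and 169 in the cord library. Sham blood was highest and cord lowest, with intervals of 295 to 309.6 and 145 to 195 CPM. T-lineage cells gave 299 CPM in the naïve library, 308 in the sham, 266 in the SCI blood and 212 in the cord library, and the log2 ratio of SCI to sham blood was -0.21 (-0.27 to -0.15). TAP1 was lower in SCI than in sham blood in 9 of 9 classes, with the interval below 0 in 5. Its lowest values were -0.91 (-1.63 to -0.32) in monocyte-like and -0.90 (-1.40 to -0.43) in basophil or mast-like cells. T classes gave -0.11 (-0.20 to -0.02) in CD4 T-like, -0.14 (-0.30 to 0.02) in CD8 T-like and -0.01 (-0.14 to 0.12) in Treg-like cells. Cytotoxic memory T-like and naïve T-like cells gave -0.22 (-0.41 to -0.02) and -0.23 (-0.57 to 0.13). CD8 T-like cells numbered 611 in sham and 1442 in SCI blood. How far that mix moved the T-lineage value of -0.21 is not given here. Thinned shares with TAP1 were 18.6%, 19.6%, 16.5% and 13.6%, and unthinned 55.3%, 65.7%, 54.9% and 66.1%. TAP2 was scarcer in counts, with 54.5 CPM in the naïve library, 58.7 in the sham, 52.2 in the SCI blood and 59.4 in the cord library over all human cells. The intervals of SCI blood (49.2 to 55.4 CPM) and cord (45.6 to 76.0 CPM) overlapped. In T-lineage cells TAP2 stood at 53.2 CPM in the naïve library, 51.3 in the sham, 45.9 in the SCI blood and 72.4 in the cord library. SCI against sham blood gave -0.16 (-0.31 to -0.01), and within classes 0 of 9 intervals excluded 0. The cord was above SCI blood at 0.68 (0.07 to 1.19) on 29 cord UMIs, and lay below 0 in 16 of 100 draws of cells thinned to 1000 UMIs. TAP2 was seen in 4.07%, 3.84%, 3.605% and 5.08% of thinned and 16.3%, 21.5%, 16.6% and 35.6% of unthinned cells.

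PSMB9 is a catalytic subunit of the immunoproteasome, the interferon-inducible form that trims proteins to class I peptides. Its level was 504 CPM in the naïve library, 528 in the sham, 513 in the SCI blood and 349 in the cord library over all human cells and 493 CPM in the naïve library, 488 in the sham, 466 in the SCI blood and 434 in the cord library in T-lineage cells. The blood libraries were close to each other. Over all human cells without plasma-like cells, naïve blood was highest of them at 552 CPM, against 528 in sham and 513 in SCI blood. The T-lineage log2 ratio of SCI to sham blood was -0.07 (-0.11 to -0.02). In monocyte-like cells sham against naïve blood gave 0.67 (0.40 to 0.95) for PSMB9. In the same cells TAP1 was 0.56 (0.25 to 0.88) and TAP2 0.73 (0.15 to 1.34). These were the 3 of 9 members past 1.2-fold higher there, beside 25.5% of genes, with 0 lower, beside 22.5%, and HLA-E at -0.13 in CPM and 0.65 in counts per cell, in a class of 140 naïve and 94 sham cells. TAP2 was higher still in basophil or mast-like cells, at 1.43 (0.27 to 3.07) on 6 naïve UMIs, where HLA-F was 0.53 (-0.03 to 1.15). Thinned shares with PSMB9 were 31.7%, 30.7%, 28.9% and 28.8%, and unthinned 74.3%, 82.8%, 75.9% and 89.8%.

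NLRC5 is the transactivator that drives transcription of class I heavy chain, B2M, TAP1 and PSMB9 genes. NLRC5 stood at 97.5 CPM in the naïve library, 108 in the sham, 98.0 in the SCI blood and 63.2 in the cord library over all human cells. Without plasma-like cells naïve blood stood at 115 CPM, above sham blood at 108 and SCI blood at 98.1. T-lineage cells held 121 CPM in the naïve library, 119 in the sham, 101 in the SCI blood and 82.4 in the cord library, higher in naïve and sham than in SCI blood. Their log2 ratio was -0.25 (-0.35 to -0.15) for SCI against sham blood and -0.27 (-0.37 to -0.16) against naïve blood, the latter turning to 0.01 in counts per cell. CD4 T-like cells gave -0.39 (-0.56 to -0.23) against sham blood. Of 8 classes with enough counts, 6 were below 0 for SCI against sham blood and the interval excluded 0 in 4; B-like cells at 0.06 (-0.15 to 0.27) and monocyte-like cells at 0.37 (-0.77 to 1.30) lay above 0. Sham and naïve T-lineage cells could not be told apart, at -0.02 (-0.12 to 0.08). NLRC5 was seen in 8.10%, 8.22%, 6.65% and 5.08% of thinned and 27.5%, 35.9%, 28.1% and 39.8% of unthinned cells.

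Levels also differed between cell classes, here as the mean ± SD over the 3 blood libraries (n = 3) of the 9 classes with at least 10 cells in each. These libraries were 1 per condition, so the SD spans conditions and is not a spread over replicates. HLA-B ran from 2561 ± 244 CPM in cycling-like to 4128 ± 400.5 in basophil or mast-like cells, 1.61-fold apart, and its 7 highest classes overlapped in range from neighbour to neighbour. HLA-C ran from 2776 ± 349.8 CPM in cycling-like to 4863 ± 599 in basophil or mast-like cells, with overlap between all neighbours. HLA-E was highest in CD8 T-like cells (1576 ± 45.5 CPM), above the next class in every blood library, and lowest in cycling-like cells (735 ± 70.6). HLA-F reached 294 ± 35.8 CPM in Treg-like cells and 123 ± 33.7 in monocyte-like cells. B2M was highest in Treg-like cells at 29694 ± 1569 CPM, followed without overlap by CD4 T-like cells at 25487 ± 442. The lowest B2M was 14585 ± 2824 CPM in monocyte-like cells, overlapping cycling-like cells. TAP1 was highest in cytotoxic memory T-like cells (383 ± 28.8 CPM) and lowest in basophil or mast-like cells (178 ± 58.4). TAP2 was highest in B-like cells (79.2 ± 10.4 CPM) and lowest in naïve T-like cells (36.2 ± 6.93), with overlap between all neighbours. PSMB9 ranges overlapped between only 2 pairs of neighbours, basophil or mast-like cells with CD8 T-like and with CD4 T-like cells; B-like cells at 758 ± 21.5 CPM stood highest, above cytotoxic memory T-like cells at 671 ± 18.3, and monocyte-like cells lowest at 286 ± 65.5. NLRC5 spanned 5.92-fold, from 24.6 ± 10.6 CPM in basophil or mast-like cells to 145 ± 19.1 in cytotoxic memory T-like cells, which overlapped CD8 T-like and B-like cells. In CPM lymphocytes thus held the highest HLA-E, HLA-F, B2M, TAP1, TAP2, PSMB9 and NLRC5, and basophil or mast-like cells the highest mean HLA-B and HLA-C, but in counts per cell the highest class differed for 9 of 9 members, being cycling-like for 7 and monocyte-like for 2, the classes of deepest cells.

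**Figure D3:**
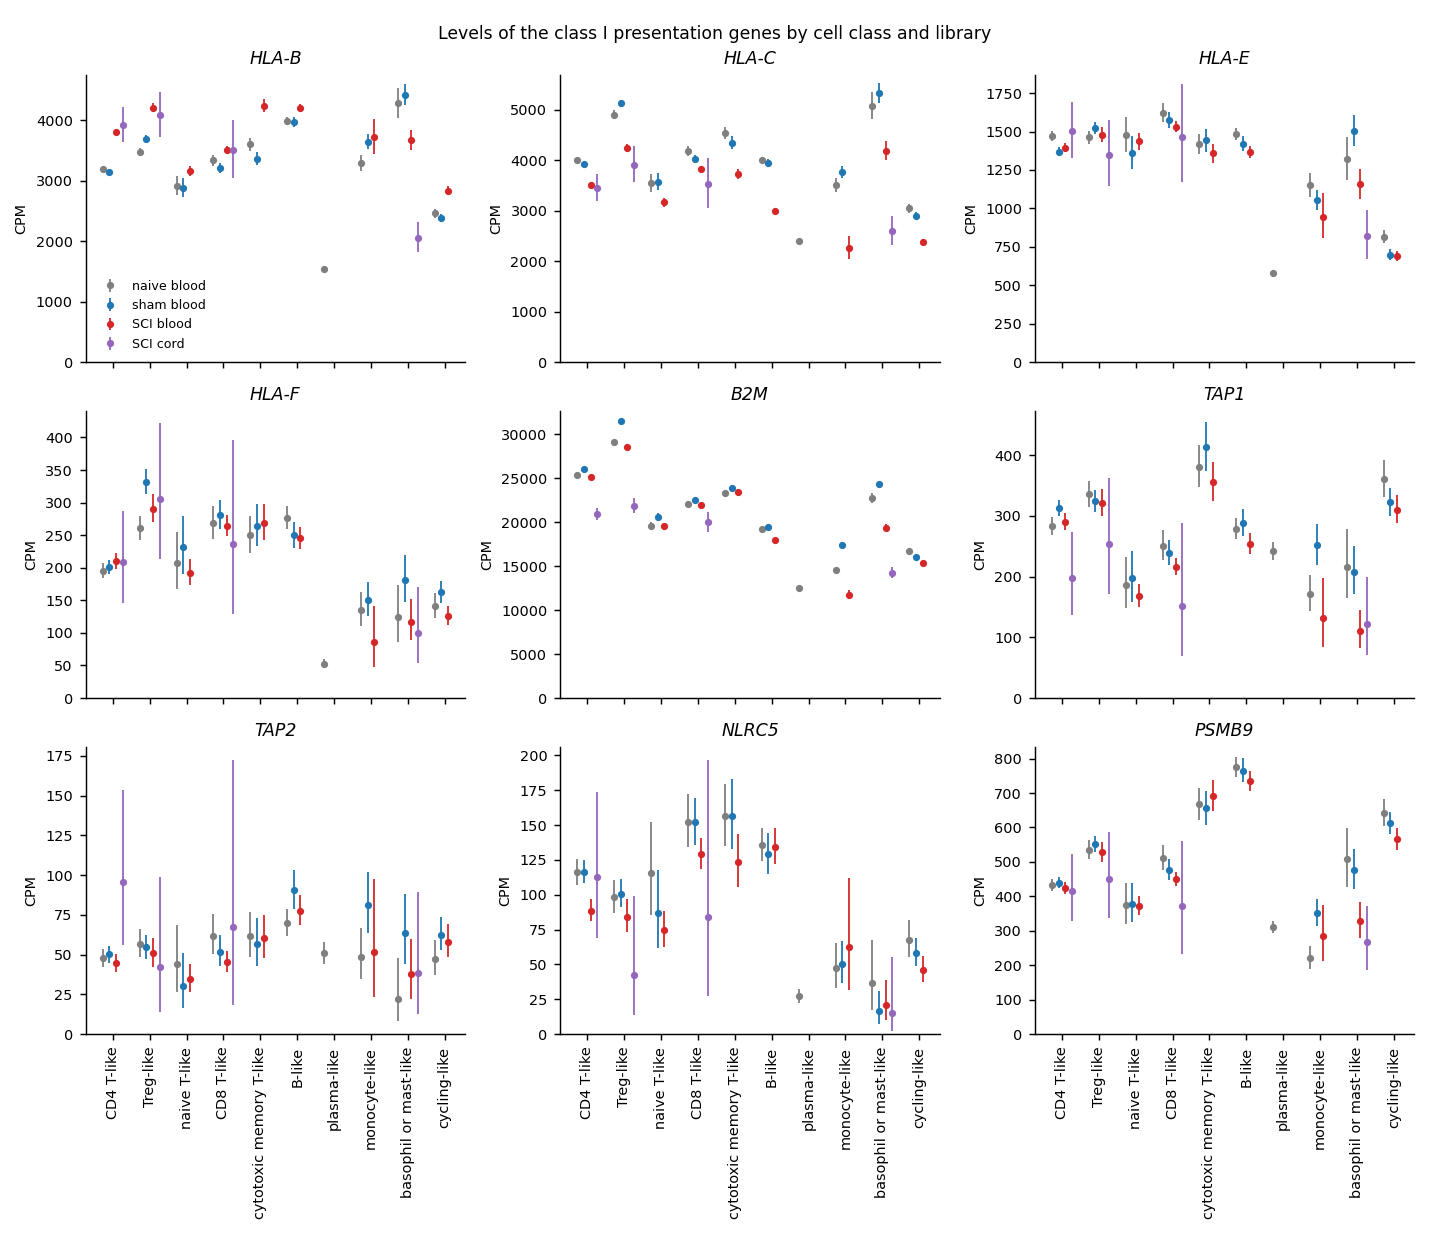
CPM of each of the 9 members (y axis, from 0) by cell class (x axis) for the 4 libraries, with exact 95% Poisson intervals that cover counting error only. NLRC5 spans 5.92-fold between the class means over blood libraries and HLA-B 1.61-fold.

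Plasma-like cells could be read in naïve blood only, where they numbered 386. HLA-B stood at 1546 CPM there, B2M at 12508 and NLRC5 at 27.1, against 3028, 20800.4 and 97.5 CPM over all naïve blood cells. All 9 members were lower in them than over all naïve cells in CPM, but 7 of 9 were higher in counts per cell. The share of all genes lower in plasma-like cells is not given here, so this count cannot be read as particular to the members. Immunoglobulin genes took 6.35% of the total in naïve blood against 0.294%, 0.432% and 0.141% in sham blood, SCI blood and cord. Without plasma-like cells, an alternative chosen after seeing the data, the median of the members for sham against naïve blood over all human cells was -0.01 in place of 0.12.

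Basophil or mast-like cells, granulocytes that carry the IgE receptor, are described on their own because the sign of HLA-B in CPM for SCI against control blood differed there from the other 8 classes; the class was singled out after its values were seen. The level of HLA-B in them was 4284 CPM in the naïve library, 4427 in the sham, 3673 in the SCI blood and 2060.1 in the cord library. B2M stood at 22686 CPM in the naïve library, 24302 in the sham, 19359.8 in the SCI blood and 14229 in the cord library, lower in SCI blood than in either control and lowest in cord, but in counts per cell SCI blood turned to 0.12 against naïve blood and the cord to 0.82 against SCI blood. Past 1.2-fold, 8 of 8 members with enough counts were lower in SCI than in sham blood, beside 24.7% of genes lower and 28.3% higher in that class. The median of the members was -0.46, beside 0.02 over all genes. For SCI against naïve blood 4 of 9 were lower and 1 higher, beside 32.8% and 22.4% of genes. Monocyte-like cells, 18 in SCI blood, had a lower median still for SCI against sham blood, -0.57, with 6 of 9 members lower and 1 higher, beside 28.2% and 33.4% of genes. Against SCI blood, cord basophil or mast-like cells gave -0.83 (-1.02 to -0.65) for HLA-B and -0.69 (-0.86 to -0.52) for HLA-C, which turned to 0.43 and 0.58 in counts per cell. Past 1.2-fold, 5 of 8 members were lower in these cord cells, each higher instead in counts per cell, beside 41.3% of genes lower and 29.0% higher. These cells numbered 96, 118, 132 and 15 in naïve, sham and SCI blood and cord.

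Comparing injured cord with the blood of SCI mice asked whether the cells that had entered tissue differed from those in circulation. Depth moved with this comparison, since median UMIs were 9331 in cord and 4655 in SCI blood. B2M was lower in cord in 5 of 5 classes with at least 10 cells in both, and in 0 of 5 in counts per cell, with CPM ratios from -0.13 (-0.22 to -0.05) in CD8 T-like to -0.44 (-0.52 to -0.37) in basophil or mast-like cells. Treg-like cells, 16 in cord, gave -0.38 (-0.44 to -0.32). Counts per cell turned the T-lineage value of -0.21 to 0.69. HLA-B differed little in T-lineage cells, at 0.04 (-0.03 to 0.11). HLA-C there was -0.06 (-0.14 to 0.01), and both intervals included 0. TAP1 in T-lineage cells was -0.32 (-0.65 to -0.01) and NLRC5 -0.27 (-0.83 to 0.21), which rest on 85 and 33 cord UMIs and turn to 0.58 and 0.63 in counts per cell. Of CD4 T-like cells, the cluster led by AC004585.1 and IGFBP4 held 90% in cord and 46.0% in SCI blood, and the cluster led by CCR10 held the rest. In that class TAP2 was 1.14 (0.30 to 1.81), on 17 cord UMIs and with thinned shares of 3.33% in cord and 3.38% in SCI blood, and B2M was -0.27 (-0.31 to -0.22). The part of that cluster difference in these values was not tested. A cluster without a name held 15 cord cells, and in it HLA-C was higher in cord at 0.63 (0.39 to 0.88).

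**Figure D4:**
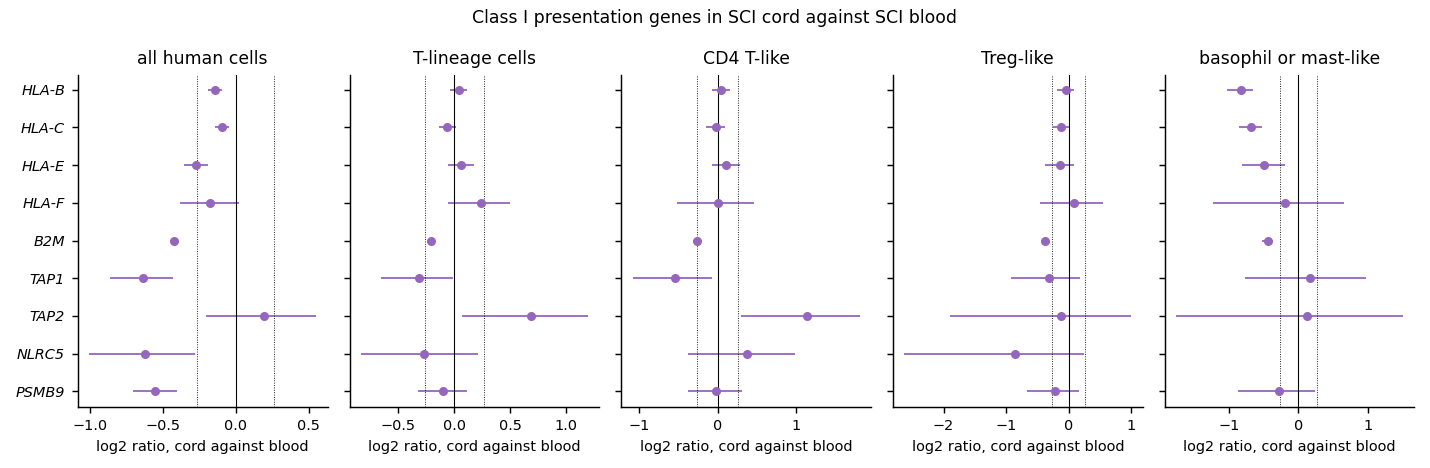
Log2 ratio of CPM in SCI cord to SCI blood (x axis) for the 9 members (y axis) in all human cells, T-lineage cells and 3 classes, with exact 95% intervals that cover counting error only and dotted lines at 1.2-fold. B2M lies below 0 in each panel, from -0.21 in T-lineage cells to -0.44 in basophil or mast-like cells, but every one is above 0 in counts per cell, the T-lineage value at 0.69.

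Mouse cells in the same libraries, which should lack human RNA, give the background from free RNA. In barcodes with most UMIs on mouse genes, thinned in the same way, B2M was seen in 15.3%, 19.1%, 20.6% and 5.49% in naïve, sham and SCI blood and cord. HLA-B was seen in 2.77%, 3.80% and 4.42% of those in blood. NLRC5 was seen in 0.260% and 0.156% in naïve and sham blood, at the floor of 3 counts, and under the floor of 0.265% in SCI blood. In cord, with 91 barcodes and a floor of 3.30%, HLA-B and NLRC5 were under it. TAP2 appeared in 0 of 1154 naïve barcodes, where the floor is 0.260% and the exact upper limit is 0.319%, and stood at the floor in sham and SCI blood, at 0.156% and 0.265%. Median total UMIs of these barcodes were 2066, 2058.5, 1837 and 26590. In blood, every member's share in human cells stood above its share in mouse barcodes.

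Around the members, 48 other genes of the class I pathway were read from 6 lists of loading factors, proteasome subunits, regulators, class I-like molecules, receptors and ligases of class I turnover. In T-lineage cells, 3 of 45 were past 1.2-fold higher and 8 lower when sham was set against naïve blood, beside 10.1% and 15.7% of all genes. SCI to naïve blood had 5 higher and 13 lower of 45, beside 16.1% and 18.5%. SCI to sham blood had 9 and 8 of 45, beside 17.7% and 13.8%, and cord to SCI blood 13 and 13 of 41, beside 36.3% and 29.4%. Of genes with enough counts in all 9 classes, the ratio was below 0 in every class for 2.46% with SCI against sham blood and for 3.57% with SCI against naïve blood. Among the regulators, STAT2, a factor of the interferon response, was lower in SCI blood in 9 of 9 classes against sham and 8 of 9 against naïve blood (1 of 9 in counts per cell), and higher in sham than in naïve blood in 8 of 9. IRF1, which interferon induces, was lower in SCI than in sham blood in 8 of 9 and lower against naïve blood in 9 of 9 for SCI and 7 of 9 for sham, but in counts per cell in 3 and 0 of 9. CIITA, the class II transactivator, was lower in SCI than in sham blood in 3 of 6, and in 5 in counts per cell. Intervals of STAT2 included 0 in several classes. For sham against naïve blood CD4 T-like cells gave 0.17 (-0.04 to 0.39) and B-like cells 0.26 (0.02 to 0.51). For SCI against sham blood cytotoxic memory T-like cells gave -0.38 (-0.90 to 0.13) and CD4 T-like cells -0.42 (-0.65 to -0.20). The share of all genes lower or higher in 7 or 8 of 9 classes is not given here. These counts therefore cannot be read as particular to the regulators.

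Receptors of class I gave the highest ratios of SCI to sham blood over all human cells, with KLRC1 at 1.66 (1.2029 to 2.16), KLRD1 at 1.33 (1.17 to 1.5029) and CD8B at 0.71 (0.63 to 0.79). KLRD1 encodes CD94, which pairs with the product of KLRC1, NKG2A, to bind HLA-E, and CD8B a coreceptor chain for class I. CD8 T-like cells numbered 611 of 4659 cells in sham and 1442 of 5937 in SCI blood, and the part of that difference was not tested. Among the lowest were LILRB2 (-1.72, -2.16 to -1.31), a myeloid receptor of class I, and MICB (-0.60, -0.78 to -0.42), a stress ligand; monocyte-like cells numbered 94 in sham and 18 in SCI blood. For sham against naïve blood CD8B (0.61, 0.52 to 0.71) and CD8A (0.41, 0.31 to 0.51) were among the highest. Within T-lineage cells CD8B was 0.19 (0.09 to 0.29) and CD8A -0.04 (-0.14 to 0.06) for that comparison. KLRC2 (-2.21, -2.86 to -1.65), KLRC1 (-2.04, -2.53 to -1.60) and the chaperone HSPA5 (-1.4995, -1.55 to -1.45) were lowest. In T-lineage cells, which leave out plasma-like cells, HSPA5 was 0.06 (-0.02 to 0.14), while KLRC2 and KLRC1 stayed low at -2.59 and -2.35. SCI against naïve blood had KLRD1 (1.36, 1.1997 to 1.53), CD8B (1.32, 1.23 to 1.41) and CD8A (1.00, 0.91 to 1.09) at the top. At the bottom stood KLRC2 (-2.95, -3.78 to -2.27), LILRB2 (-1.79, -2.23 to -1.39) and HSPA5 (-1.75, -1.80 to -1.70). HSPA5 in T-lineage cells was -0.13 (-0.22 to -0.05) for SCI against naïve blood. In cord against SCI blood FCGRT (1.59, 1.36 to 1.80), the neonatal Fc receptor, HSPA5 (0.87, 0.71 to 1.03) and PSMB10 (0.79, 0.51 to 1.05), an immunoproteasome subunit, were highest. CD8B (-1.75, -2.20 to -1.37), KLRC1 (-1.69, -5.06 to -0.13, on 2 cord UMIs) and MARCH9 (-1.18, -1.69 to -0.75) were lowest. CD8 T-like cells were 8.47% of cord and 24.3% of SCI blood cells, and monocyte-like cells 5.93% and 0.303%. The part of these differences in the ratios over all human cells was not tested.

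Over 27 sums of a class in a blood library with at least 20 cells, the pattern of each member was set against 6889 genes by Pearson correlation of log2(CPM + 1). These points share libraries and depth, so the values are a description. Most like the mean of the members were LRCH3 (0.88), KMT2E (0.88), SETD2 (0.86), ARHGAP25 (0.86) and CCNT2 (0.86). For HLA-B they were PDLIM2 (0.88), PRKCB (0.87) and CIR1 (0.86), and for HLA-C SLC35D2 (0.86), MR1 (0.83) and SAMD9 (0.83). HLA-E was closest to CNOT4 (0.94), ZBTB20 (0.93) and CCNL2 (0.92), and HLA-F to L3MBTL3 (0.92), PHF11 (0.91) and SETD2 (0.90). For B2M, CASP8 (0.86) and CCDC186 (0.85) were among the 3 most correlated genes, and for TAP1 LAG3 (0.84) and CAPN15 (0.82). TAP2 was closest to FAM91A1 (0.85), TFEB (0.78) and UBE2A (0.75), NLRC5 to TRIM56 (0.96), DDX17 (0.92) and CBLB (0.92), and PSMB9 to PEX16 (0.82), DCAF13 (0.81) and TMEM242 (0.81). Among the members, correlations over the 36 pairs ran from -0.10 to 0.80 with a median of 0.42. NLRC5 was nearest to HLA-F at 0.77 and farthest from HLA-C at 0.12 and HLA-B at 0.19. HLA-B and HLA-C reached 0.68 with each other across these points, although their ratio differed between SCI and control blood.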

How the data were processed

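Human leukocytes were measured by 10x scRNAseq in 4 libraries, 1 per condition. The authors aligned the reads to a combined human and mouse reference (hg38 and mm10, per the labels) with Cell Ranger (3.1.0, per the file headers) and deposited UMI counts per gene and barcode, with features and barcodes listed in other deposited tables. From these counts, barcodes with over 50% human UMIs were kept, and those more than 3 median absolute deviations towards low UMIs or genes or high mitochondrial or ribosomal share were removed (319, 237, 252 and 20 in naïve, sham and SCI blood and cord). Doublets were marked by simulated pairs at 0.8% per 1000 barcodes and removed above 3000 genes (62, 76, 94 and 0). Kept cells held 29538006, 27911125, 31219349 and 1430777 human UMIs. Clusters came from 2000 variable genes without the members and the other pathway genes, 30 components, 15 neighbours and the Leiden method at 0.8 (scanpy 1.11.5, leidenalg 0.10.2), and were named from marker lists. Counts were summed per library and class, log2 ratios took 0.5 added to each count and at least 20 counts, and intervals were exact Poisson, binomial or conditional binomial at 95% (scipy 1.17.1). The ratio step was tested on simulated data. Alternatives were other scalings including TMM (edgeR 4.0.16), thinning, filters, added counts, class weights, resolutions and a fold of 1.5. Named beside the members were, per comparison, the 3 highest and 3 lowest pathway genes with at least 100 counts, with regulators and receptors needed to follow them, and, for likeness, the 5 genes nearest the mean of the members and the 3 nearest each; not all of these are reported here. The members and lists were chosen with earlier results of these data known. Promoter and protein sequences were not used here.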

Additional observations from a re-analysis of the deposited data

Results flagged for a closer look

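In several classes whose counting intervals lay clear of 0, HLA-B or HLA-C moved in opposite directions in the same comparison, and these differences between classes were not tested. For SCI against sham blood, HLA-B had a log2 ratio of 0.28 in CD4 T-like and 0.33 in cytotoxic memory T-like cells but -0.27 in basophil or mast-like cells; in counts per cell these were 0.07, -0.03 and -0.64. For SCI cord against SCI blood, HLA-B was -0.83 in basophil or mast-like cells and 0.32 in the cluster without a name in CPM, but above 0 in both in counts per cell (0.43 and 1.68). HLA-C gave -0.69 and 0.63 in the same cells, and 0.58 and 1.99 in counts per cell. The basophil or mast-like class held 15 and the unnamed cluster 15 cord cells.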

How the results depend on the processing

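Of the medians of the members under the alternatives tried, 56 stayed within the counting interval of the value reported, 54 moved past it and 3 changed sign after lying clear of 0. The leaving out of immunoglobulin genes, plasma-like cells or the unnamed cord cluster was chosen after seeing the data, as were counts per cell within classes and repeated draws. With ribosomal and mitochondrial genes in the total the median of the members was in all human cells 0.098 for sham to naïve, -0.093 for SCI to naïve, -0.23 for SCI to sham and -0.17 for cord to blood, and in T-lineage cells -0.19 for SCI to naïve and -0.24 for SCI to sham. With TMM factors the median of the members was in all human cells 0.049 for sham to naïve, -0.045 for SCI to naïve and -0.15 for SCI to sham, and in T-lineage cells 0.027 for sham to naïve, -0.056 for SCI to naïve, -0.17 for SCI to sham and -0.15 for cord to blood. In counts per cell the median of the members was in all human cells 0.46 for sham to naïve, 0.080 for SCI to naïve, -0.42 for SCI to sham and 1.04 for cord to blood, and in T-lineage cells 0.51 for sham to naïve, 0.19 for SCI to naïve, -0.39 for SCI to sham and 0.83 for cord to blood. As a mean of per-cell CPM the median of the members was in all human cells 0.027 for sham to naïve, -0.089 for SCI to naïve, -0.13 for SCI to sham and -0.14 for cord to blood, and in T-lineage cells -0.099 for SCI to naïve, -0.16 for SCI to sham and 0.027 for cord to blood. Thinned to 1000 UMIs the median of the members was in all human cells 0.066 for sham to naïve, -0.022 for SCI to naïve and -0.14 for SCI to sham, and in T-lineage cells 0.012 for sham to naïve, -0.16 for SCI to naïve and -0.17 for SCI to sham. With at least 90% human UMIs the median of the members was in all human cells -0.12 for SCI to sham. With equal class weights the median of the members was in all human cells 0.0017 for sham to naïve, -0.075 for SCI to naïve, -0.085 for SCI to sham and -0.070 for cord to blood, and in T-lineage cells -0.055 for SCI to naïve and -0.074 for SCI to sham. With equal class weights at a clustering resolution of 0.4 the median of the members was in all human cells 0.0064 for sham to naïve, -0.074 for SCI to naïve, -0.091 for SCI to sham and -0.034 for cord to blood, and in T-lineage cells -0.056 for SCI to naïve and -0.082 for SCI to sham. With equal class weights at a resolution of 1.5 the median of the members was in all human cells 0.010 for sham to naïve, -0.073 for SCI to naïve, -0.090 for SCI to sham and -0.068 for cord to blood, and in T-lineage cells -0.054 for SCI to naïve and -0.078 for SCI to sham. With immunoglobulin genes left out of the total the median of the members was in all human cells 0.026 for sham to naïve and -0.064 for SCI to naïve. Without plasma-like cells the median of the members was in all human cells -0.0069 for sham to naïve and -0.090 for SCI to naïve. The added plasma-like alternative holds fewer naïve cells of low member levels, and counts per cell add the depth of each library by construction; for the others the cause was not tested. SCI against sham blood kept the sign of its median in 14 of 14 alternatives in all human cells and in T-lineage cells, SCI against naïve in 5 and 13 of 14, sham against naïve in 13 and 10, and cord against blood in 14 of 15 and 12 of 14.

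At a fold of 1.5 in place of 1.2, which is a stricter bound by construction, 0 members were higher for sham to naïve or SCI to naïve over all human cells, 0 were lower for SCI to naïve in T-lineage cells, and 2 were lower in cord over all human cells and 0 in T-lineage cells. Without thinning the median share of cells with a UMI over the members was 74.3%, 82.8%, 75.9% and 89.8% in naïve, sham and SCI blood and cord. Within classes, thinning left 189 values within their interval and moved 87, and it changed the sign of 7 in 1 draw. For sham against naïve blood these were HLA-F in B-like (0.038), HLA-C in CD4 T-like (0.011), and B2M (0.0034) and TAP1 (0.027) in cycling-like cells. HLA-F also did so in Treg-like cells for SCI to naïve (-0.049) and in cycling-like cells for SCI to sham (0.040), and B2M in CD8 T-like cells for cord to blood (0.011). Over 100 draws of the thinning, 0 values within classes that lay clear of 0 changed sign at the median draw, so these changes rest on the draw. After thinning, 20 of 42 cord values within classes lay above 0, in place of 12, and 19 at the median draw. Settings other than counts per cell moved the all-gene median by over 0.1 in the cord comparison, by 0.37 over all human cells and 0.62 in T-lineage cells with an added count of 5, by 0.11 and 0.22 with thinning, by 0.25 to 0.29 with equal class weights, and by 0.10 with ribosomal and mitochondrial genes in the total over all human cells. That total also moved it by -0.12 for SCI to naïve and -0.10 for SCI to sham, and equal class weights by -0.11 for SCI to naïve. No paired analysis was possible because each condition had 1 library and no comparison was tested.

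With 1 library per condition, animal, donor, handling and condition cannot be told apart, and the intervals describe counting alone. The study took blood from all mice and cord from the SCI mice, so SCI blood and cord came from the same group of mice. Which hosts went into each pool is not given. Cord values rest on 118 cells, and monocyte-like values in SCI blood on 18. Members of low counts, TAP2 and NLRC5, had the widest intervals. Cell classes were rebuilt by clustering and their names rest on markers. Surface protein was not used here.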
